A study of Mus musculus with 40 samples.

Results

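The de novo lipogenesis genes described here are Fasn, Scd1, Acaca, Acly, Elovl6, Me1, Srebf1, Thrsp and Dgat2, 9 of the 29411 gene symbols that annotate the array. They were chosen by name, for their place in the pathway, and every probe with one of these symbols was taken. The study followed C57BL/6J mice on 5 diets that began when the mice were weaned, at 3 to 4 weeks of age. The low-fat control diet (LFC) drew 10% of its calories from fat, and the high-fat diet (HFC) drew 60% from fat and held more sucrose. The diets HF5, HF20 and HF75 were HFC given with 5, 20 or 75 µg of Kal-1, a plant formulation in water, so HFC is their control. RNA of subcutaneous stromal vascular cells, which the study's title calls infiltrating macrophages, was measured on 1-colour arrays. LFC and HFC have 11 arrays each, at days 1, 6, 10 and 14 and at weeks 0, 3, 6, 9, 12, 15 and 18, where week 0 was counted as day 14 and week 18 as day 140. HF5 has 6 arrays (weeks 3 to 18), and HF20 and HF75 have 5 each (weeks 3 to 15). Nearly every diet and time point has 1 array, so the time points serve as the repeats, and the labels do not say how many mice each array stands for. Precision is limited by how few arrays there are.

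De novo lipogenesis builds fatty acids from the carbon of sugar: citrate is cleaved to acetyl-CoA, which is carboxylated and assembled into palmitate, and the product is then elongated, desaturated and stored as triglyceride. In mice the pathway is most active in liver and in adipocytes, is induced by insulin and carbohydrate through SREBP-1c and ChREBP, and is known to be lowered in fat tissue by diets rich in fat. Stromal vascular cells are what remains of digested fat tissue once the adipocytes have floated off.

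All levels below are log2 of the processed signal of a probe over the 75th percentile of its array, so a level of 0 is the 75th percentile, and levels are compared only within a probe. A level counts as measured when the scanner software called it well above background, and a saturated level, at the ceiling of the scanner, is a lower bound. Over the 38 arrays the median ratio of spot signal to local background ran from 1.53, on the LFC array of week 3, to 55.0, on the LFC array labelled day 14. These arrays stand apart from the rest. The LFC array of week 3 had 17.2% of its probes well above background and a 75th percentile of 7.81 intensity units, and 4 of the 9 genes were not above background on it. On the LFC array labelled day 14, the scanner software set 9104 spots aside as outliers. The arrays of day 6 had the next lowest ratios after week 3, 2.43 in LFC and 2.09 in HFC. Of their probes, 53.4% (LFC) and 73.9% (HFC) were well above background.

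The label was checked against marker genes. Every measured gene of 9 macrophage markers was well above background on 35 of the 38 arrays, and every measured gene of 8 stromal progenitor markers on 36. On the LFC array of week 18, 5 of the 8 stromal markers (Pdgfra, Dcn, Col3a1, Dpt and Lum) and 6 of the 12 adipocyte markers (Adipoq, Plin1, Cidec, Lep, Retn and Adrb3) were not above background. Its macrophage markers were all above background, with a mean level of 1.54, so its low stromal markers go against the label and its macrophage markers do not. On the dim LFC array of week 3, 8 of the 9 macrophage markers, 4 of the 8 stromal markers and 8 of the 12 adipocyte markers were not above background, so that array cannot be held to its label. The day 6 arrays lacked 1 (LFC) and 2 (HFC) macrophage markers. The HFC array of day 1 had the lowest macrophage mean, -1.55, with all 9 markers above background, beside a brown or beige fat mean of 5.57. The adipocyte markers, which the preparation of stromal cells should remove, were all above background on 36 of the 38 arrays. In bulk RNA, fewer cells of a type and less RNA per cell cannot be told apart.

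The 12 adipocyte markers separated the arrays. Their mean log2 level was between 4.82 and 6.16 on 10 arrays and at most 3.40 on the other 28. The 10 arrays were LFC at day 6 and weeks 9 and 12, HFC at days 1 and 6 and week 9, HF5 at week 9, and HF20 at weeks 9, 12 and 15. No HF75 array was among them. Summed on the linear scale, where 1 is the 75th percentile of the array, the adipocyte markers came to 201, 1348, 366, 80.9, 144, 219, 86.7, 533, 481, 143 and 7.19 on the LFC arrays in order of time. The sums on the HFC arrays were 553, 1759, 211, 364, 155, 169, 102, 406, 219, 100.2 and 360.0. Across weeks 3 to 18 they were 120, 132, 455, 173, 79.6 and 201 in HF5. Both LFC and HFC thus span a wide range with no steady trend over time, and the HF5 array of week 9 stands above the other HF5 arrays. The sums in HF20 were 199, 62.8, 472, 659 and 558, high in the last 3 of the 5 arrays. In HF75 they were 254, 165, 397, 264 and 249, highest at week 9. A low 75th percentile raises the ceiling that levels on an array can reach. It was 390 and 160 intensity units on the LFC and HFC arrays of day 6, beside 1259 and 1409 on the LFC arrays of weeks 9 and 12. The high sums of day 6 therefore cannot be ranked against those of weeks 9 and 12.

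The lipogenesis genes were highest on the same 10 arrays. Each gene's level was centred on its median over the 38 arrays, and the mean of the 9 centred levels ranked the same 10 arrays first. This mean was 1.90 to 4.65 on the 10 arrays and -2.77 to 1.33 on the other 28. It was 4.65 on the LFC array of day 6, 3.49 and 3.40 on those of weeks 12 and 9, 3.14 and 2.63 on the HF20 arrays of weeks 12 and 15, and 2.67 and 2.45 on the HFC arrays of days 6 and 1. Of the 9 genes, 4, 8 and 7 were saturated on these LFC arrays, 6 and 5 on the HF20 arrays, and 0 and 3 on the HFC arrays. Means with saturated genes are lower bounds, so the order among these arrays is not settled. The lowest mean was on the LFC array of week 18, where Me1 and Thrsp were not above background. A list of genes that respond to the digestion of tissue (Fos, Fosb, Jun, Egr1, Atf3, Dusp1 and Hspa1a) lay the other way on most of these arrays. Its mean level was -1.43 to 4.03, with a median of 0.16, on the 10 arrays, and 1.38 to 5.40, with a median of 4.83, on the others. The part of adipocytes and of tissue handling in the levels of the 9 genes was not tested.

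**Figure D1:**
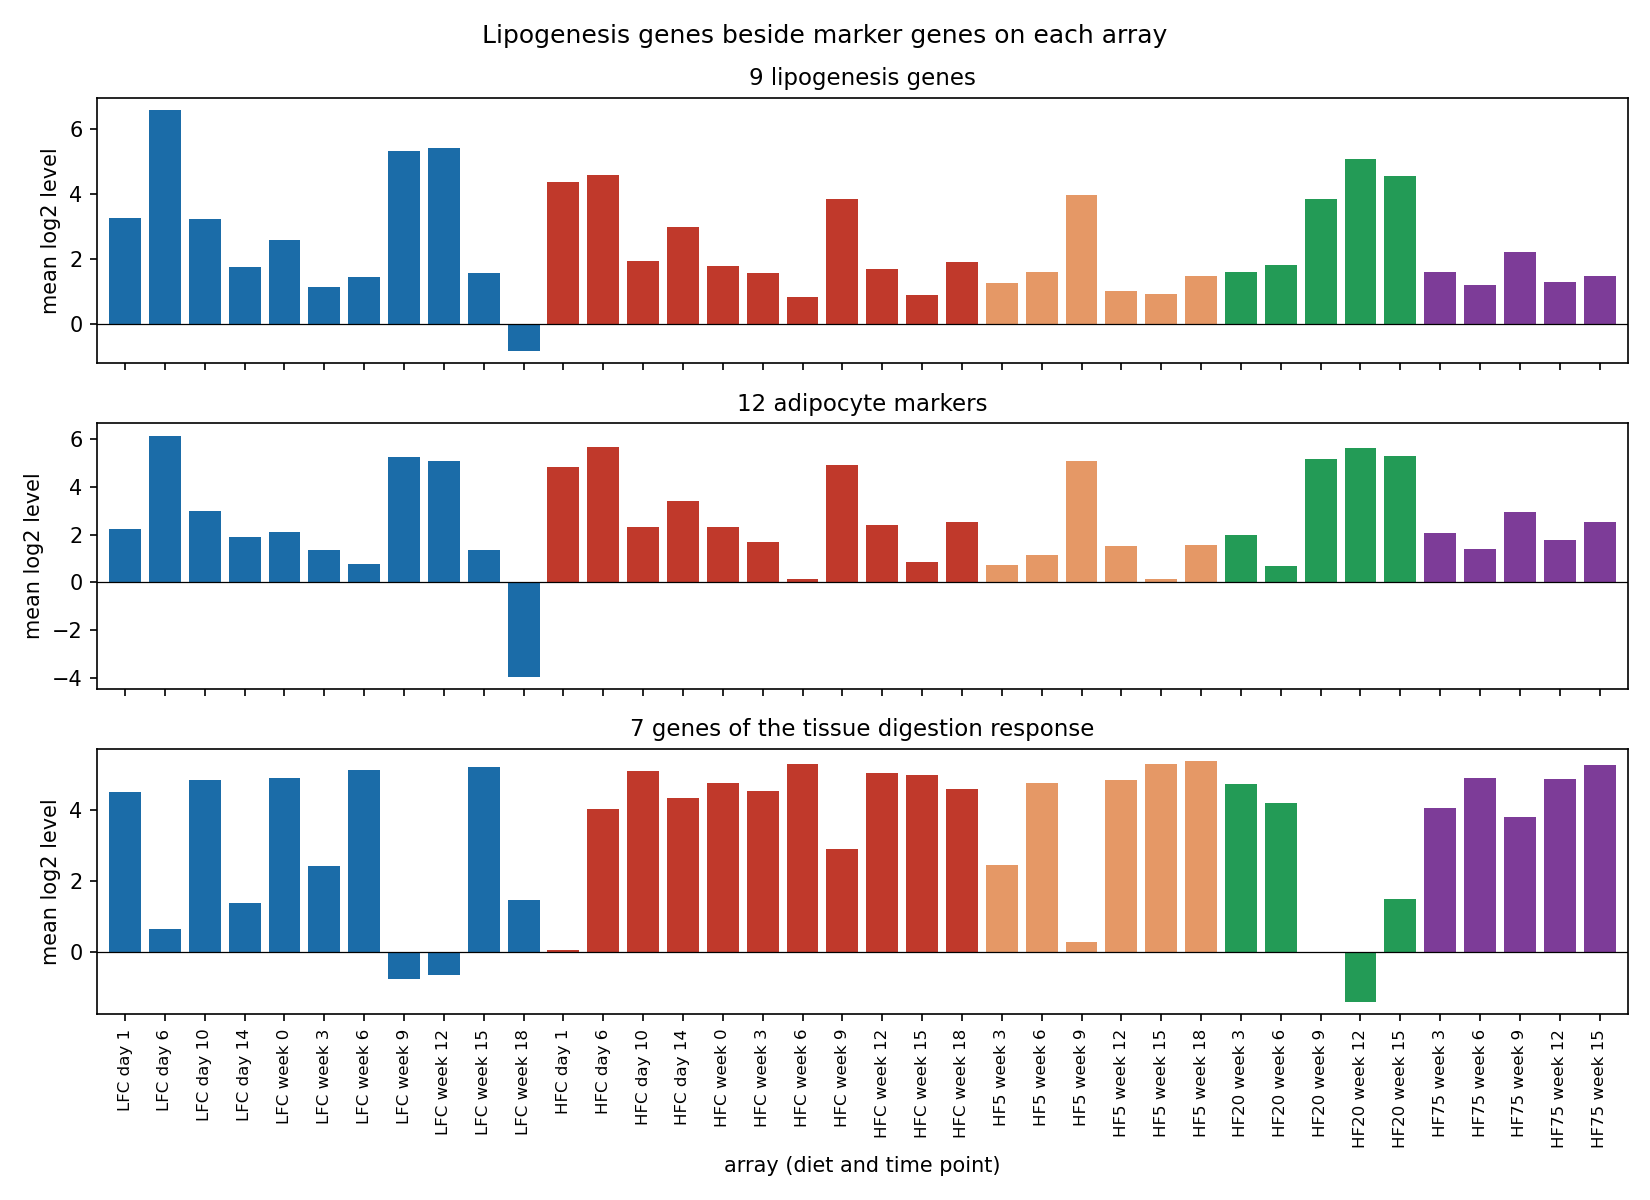
Mean log2 level (over the 75th percentile of the array) of the 9 lipogenesis genes, of 12 adipocyte markers and of 7 genes of the tissue digestion response, with 1 bar for each of the 38 arrays, coloured by diet. The 10 arrays with adipocyte means from 4.82 to 6.16 are also the 10 on which the lipogenesis genes are highest.

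The genes follow in the order of the pathway. Srebf1 encodes the transcription factor SREBP-1, whose 1c form switches the pathway on. Its level was saturated on 7 of the 38 arrays. In LFC the lowest, median and highest levels were 0.78, 3.19 and 6.71, and in HFC 2.79, 3.02 and 5.29. The HFC levels lay inside the range of LFC. HF20 levels were 3.16, 4.06, 5.43, 5.89 and 5.73 at weeks 3, 6, 9, 12 and 15, and HF75 levels were 2.99, 4.40, 2.99, 3.65 and 3.34. The groups overlap, with the last 3 HF20 arrays, all saturated, above the HF75 arrays.

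Acly cleaves citrate to give cytosolic acetyl-CoA. Its level in LFC was 0.08 at the lowest (week 6), 1.27 at the median and 5.40 at the highest (week 12), and in HFC it was -0.60, 0.26 and 2.54. In HF5 the lowest, median and highest levels were -0.07, 0.53 and 0.59. In HF20 they were 0.72, 0.70, 0.67, 2.85 and 1.59 at weeks 3, 6, 9, 12 and 15, and in HF75 0.61, 0.04, 0.52, -0.15 and -0.20. Acly was thus high on 3 LFC arrays (day 6 and weeks 9 and 12), and all other groups overlap with the lower LFC levels. It was saturated on 1 of the 38 arrays, the LFC array of week 12.

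Me1, malic enzyme, supplies NADPH. It ranged from -6.45 to 7.14, the lowest value not above background, on the LFC array of week 18. Its HF20 levels were 1.61, 1.69, 4.74, 6.17 and 5.89 at weeks 3 to 15, and its HF75 levels were 1.72, 2.05, 2.57, 2.07 and 2.65. The first 2 HF20 arrays lie just below the HF75 arrays and the other 3 above all of them.

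Acaca carboxylates acetyl-CoA to malonyl-CoA, the committed step. It was never saturated. In LFC its lowest, median and highest levels were -2.55, -0.29 and 4.71, in HFC -2.72, -1.95 and 2.74, and in HF5 -2.88, -2.38 and 1.43. The HF20 levels were -2.11, -2.21, 1.01, 3.24 and 2.50 at weeks 3 to 15. In HF75 they were -1.78, -3.29, -2.02, -2.99 and -2.11, all below the last 3 HF20 arrays and overlapping with the first 2. All groups overlap, and in each of LFC, HFC, HF5 and HF20 the highest levels came from arrays rich in adipocyte markers.

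Fasn, fatty acid synthase, makes palmitate. Its brightest probe was saturated on 13 of the 38 arrays and ranged from 2.51 to 8.07, with a median of 4.72. A dimmer probe of Fasn was saturated on 1 array and ranged from -3.70 to 6.01. The probes had a Pearson r of 0.731 and a Spearman rho of 0.832 over the 38 arrays, which share diets and time points. The dimmer probe lay at 5.58 on the LFC array of week 9 and at 2.19, 2.32 and 2.17 on the HFC, HF5 and HF20 arrays of that week, where the brighter probe was saturated on all 4. Levels of the brighter probe there, 5.66, 5.34, 5.49 and 5.48, are therefore lower bounds and cannot show such a difference. Because the probes differ in this way, their sequences are given, both as printed on the array in the deposited annotation.

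Fasn brightest probe: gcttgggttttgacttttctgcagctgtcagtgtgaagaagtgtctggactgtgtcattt
Fasn dimmer probe: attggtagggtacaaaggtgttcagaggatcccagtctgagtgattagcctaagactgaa

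Elovl6 elongates palmitate to stearate. Its spot was an outlier on the LFC array of day 10 and was left out there. Over 10 LFC arrays its lowest, median and highest levels were -1.78, 1.89 and 6.48, and over 11 HFC arrays -0.41, 0.87 and 5.09. Across weeks 3 to 15 the HF20 levels were 0.48, 1.47, 1.09, 3.74 and 2.46. The HF75 levels were 0.15, -0.01, -0.29, -0.33 and -0.13, below every HF20 array, as was also the case for Acly. The share of all probes that part HF20 from HF75 in this way is not given here, so this is not particular to these genes. That separation of HF20 from HF75 was not tested.

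Scd1, stearoyl-CoA desaturase, makes oleate from stearate. Its level ran from -0.02, not above background on the LFC array of week 3, to 7.40 on the LFC array of day 6, and it was saturated on 8 arrays. Dgat2 joins the last acyl chain to form triglyceride, and its level ran from 0.56 to 6.87, saturated on 9 arrays. Its dimmer probes followed the brightest one with a Pearson r of 0.956 and 0.926 over the 38 arrays. For Scd1 and Dgat2 alike, the 3 HF20 arrays of weeks 9, 12 and 15 were saturated, so their levels of 5.54, 6.00 and 5.79 (Scd1) and 5.53, 5.88 and 5.77 (Dgat2) are lower bounds. These lie above all 5 HF75 levels of the same gene.

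Thrsp, or Spot 14, is a small nuclear and cytosolic protein that enhances lipogenesis. It ranged from -6.78, not above background on the LFC array of week 18, to 7.53, saturated on the LFC array of day 6. In LFC its lowest, median and highest levels were -6.78, 3.43 and 7.53, in HFC -0.43, 2.04 and 6.33, and in HF5 -0.67, 0.65 and 4.91. HF20 levels were 1.54, 0.40, 5.27, 5.99 and 5.50 at weeks 3 to 15, and HF75 levels were 1.83, -0.51, 3.30, 1.16 and 1.51. The groups overlap, and the 3 late HF20 arrays lie above the HF75 arrays.

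**Figure D2:**
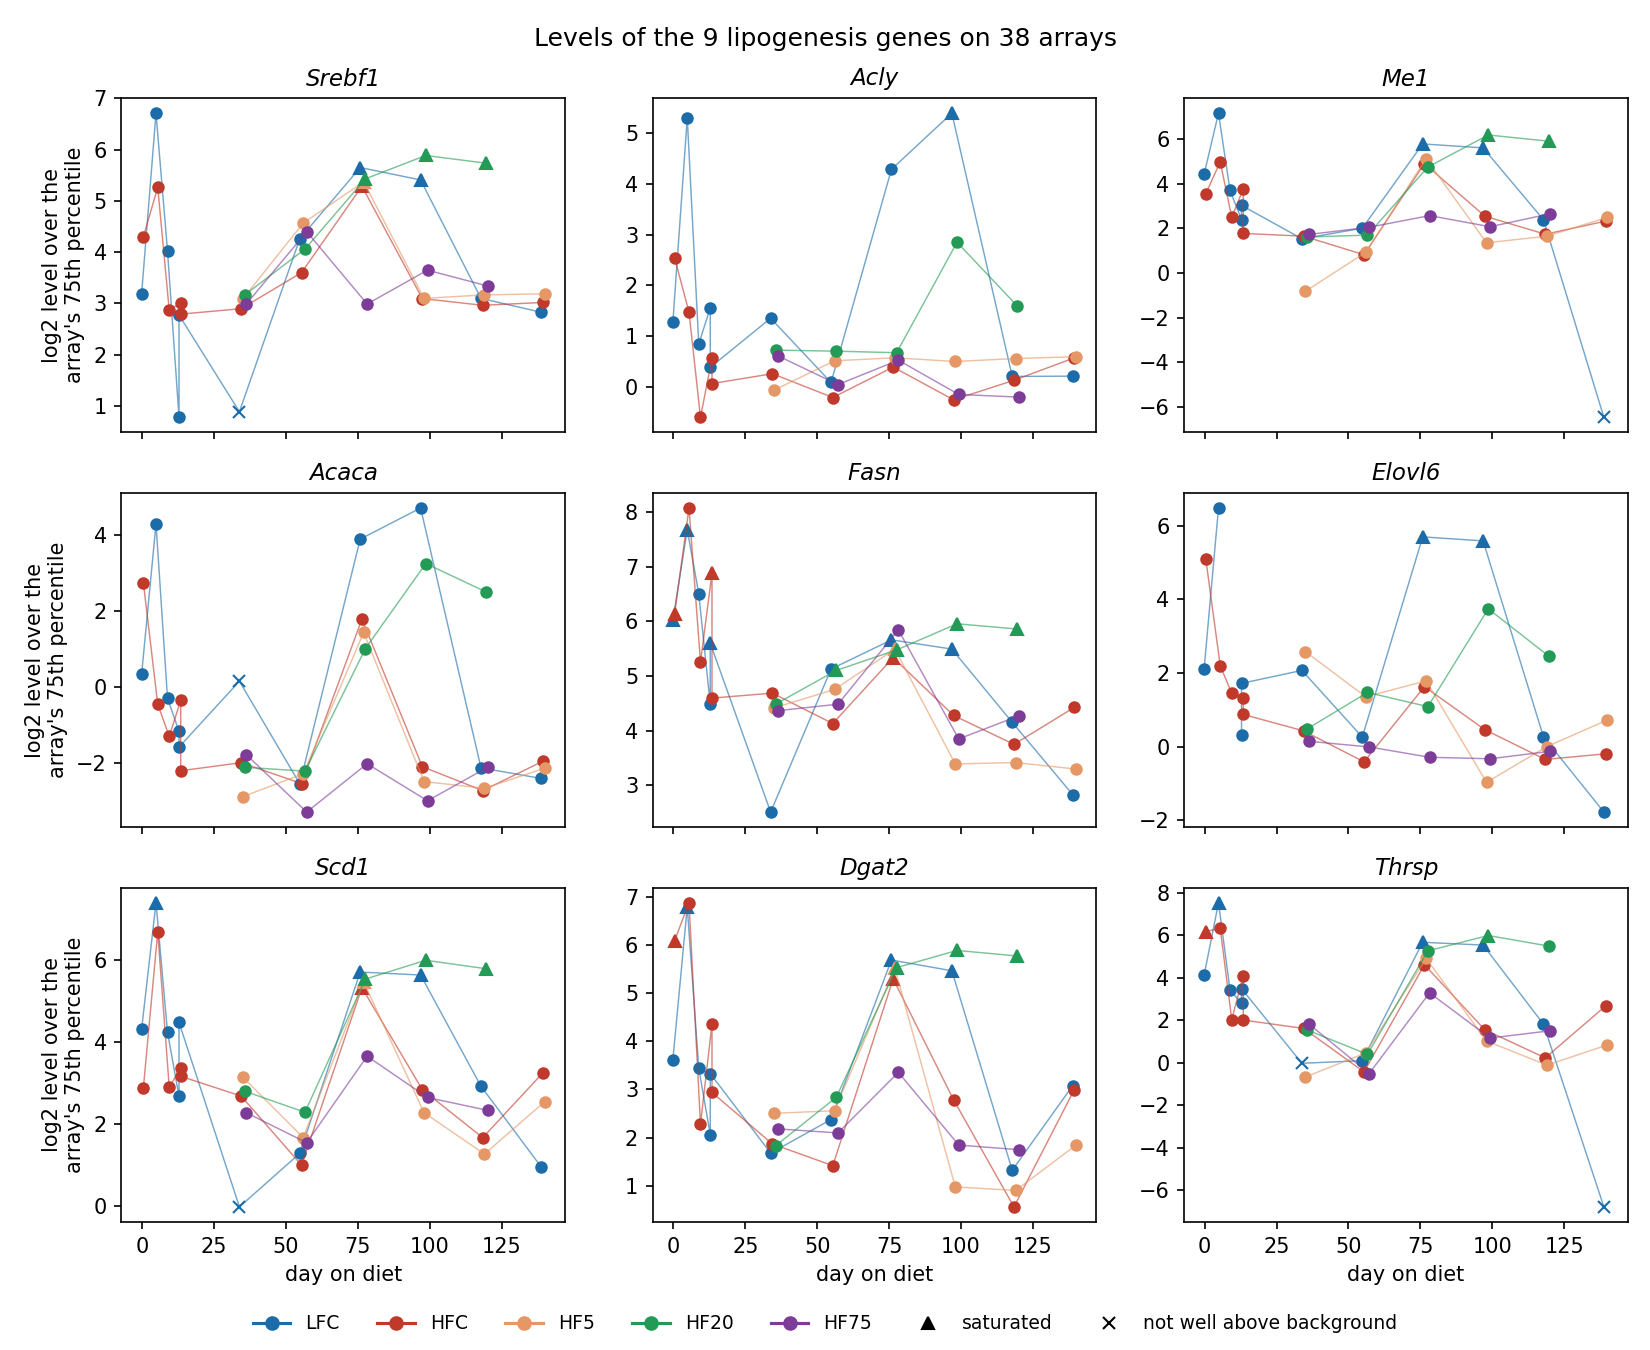
Level of each of the 9 genes (log2 over the 75th percentile of the array) against the day on diet, with 1 point for each of the 38 arrays and diets set slightly side by side. Triangles are saturated and crosses are not well above background. The high points are LFC at day 6 and weeks 9 and 12, HFC at days 1 and 6 and week 9, HF5 at week 9, and HF20 from week 9 to week 15.

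The order of the diets can be read over the 5 weeks that all of them share (weeks 3, 6, 9, 12 and 15). By mean level, HF20 was highest for Fasn, Scd1, Me1, Srebf1, Thrsp and Dgat2, with LFC next. LFC was highest for Acaca, Acly and Elovl6, with HF20 next. Saturated arrays enter these orders as lower bounds, 4 of 5 in HF20 and 2 of 5 in LFC for Fasn, and 3 of 5 in HF20 for each of Scd1, Srebf1 and Dgat2. In LFC 2 of 5 were saturated for these 3 genes too, and for Me1, Thrsp and Elovl6, with 2 of 5 in HF20 for Me1 and 1 for Thrsp. The dim LFC array of week 3 also enters, with levels not above background for Scd1, Acaca, Srebf1 and Thrsp. Without week 3 the order of LFC and HF20 turned for Acaca, with means of 1.14 in HF20 and 0.98 in LFC (n = 4). The dimmer Fasn probe had LFC highest over the 5 weeks, with a mean of 1.55 (1 array saturated), and HF20 next, with 1.44. Without week 3 its means were 1.94 in LFC, a lower bound with 1 array saturated, and 2.28 in HF20. The brightest Fasn probe was saturated on 4 of 4 HF20 arrays there, so neither probe settles the order of HF20 and LFC. The dimmest Dgat2 probe, never saturated, had HF20 highest (1.38) and LFC next (0.54). For Acly the means were 2.26 in LFC, 1.31 in HF20, 0.41 in HF5, 0.17 in HF75 and 0.06 in HFC, with SDs of 2.44, 0.95, 0.27, 0.38 and 0.29 (n = 5 each). For Thrsp they were 3.74 in HF20, 2.62 in LFC, 1.52 in HFC, 1.46 in HF75 and 1.13 in HF5, with SDs of 2.57, 2.82, 1.94, 1.37 and 2.21. Of the 36 steps between neighbours in the orders by the brightest probes, 0 exceeded the larger SD of the neighbours. That SD spans weeks that the diets share, so it does not show that neighbours are alike. Acly, for one, was higher in HF20 than in HF5 at each of the 5 weeks. By the dimmer Fasn probe the step from HF20 (1.44, SD 2.80) to HFC (-1.40, SD 2.04) was larger than either SD. Without week 3 so was that of Elovl6 from HF20 (2.19, SD 1.19) to HF5 (0.54, SD 1.26). The step of Acly from HF5 (0.53, SD 0.035) to HF75 (0.05, SD 0.33) was too.

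The comparison of HFC with LFC asks what fat and sucrose in the diet do. Across 11 pairs of arrays of the same time point, limma put 0 of the 9 genes past an adjusted p of 0.05, against 0% of the 29267 probes tested. At an unadjusted p under 0.05, 1 of the 9 passed, against 2.8% of all probes (820). That gene was Acly, lower in HFC in 9 of 11 pairs with a log2 difference of -1.45 (SE 0.579, adjusted p 0.940). Elovl6 was lower in 7 of 10 pairs (-1.17) and Acaca in 7 of 11 (-1.30), and neither had an unadjusted p under 0.05. The dimmer Fasn probe did, lower in 9 of 11 pairs by a log2 difference of -1.61 (adjusted p 0.940). The other differences were -0.35 for Scd1, -0.12 for Dgat2, -0.09 for Me1, -0.05 for Srebf1, 0.13 for Fasn and 0.29 for Thrsp. All 6 rest in part on saturated arrays, 3 LFC and 1 HFC for Scd1 and for Thrsp, 3 and 2 for Dgat2, 5 and 3 for Fasn, 2 and 1 for Srebf1 and 2 LFC for Me1. So do the differences of Acly and the dimmer Fasn probe (1 LFC array each) and of Elovl6 (2 LFC). The dimmest Dgat2 probe, never saturated, differed by -0.95 (adjusted p 0.940, lower in 8 of 11 pairs). The median over the 9 genes was -0.12, beside -0.08 over all probes, and 7 of the 9 were lower, while 43.5% of all probes were higher. The fitted differences of marker lists lay the other way here, with 9 of 12 adipocyte markers (median 0.48), 8 of 8 stromal progenitor markers (1.27), 7 of 9 macrophage markers (0.20), 4 of 5 brown or beige fat markers (0.03) and 7 of 7 genes of the digestion response (1.5) higher in HFC. Of these lists 0 genes passed in limma, and 0, 1, 1, 0 and 2 had an unadjusted p under 0.05. The median of the 9 genes was -0.63 without the pair of week 18, on whose LFC array 5 stromal and 6 adipocyte markers were not above background. That pair weighs on the lists as well. The mean level of the adipocyte list differed by 0.53 over the 11 pairs and by -0.07 without week 18. For the stromal list these values were 1.05 and 0.39, for brown or beige fat 0.11 and -0.35, for macrophages 0.16 and 0.22, and for the digestion response 1.51 and 1.35.

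All 9 genes were lower in HFC at weeks 12 and 15, with median log2 differences of -3.05 and -0.61, when 49.6% and 47.8% of all probes were higher. At week 12 the LFC array was saturated for 8 of the 9, so -3.05 is only a bound, and the genes may have been lower still in HFC. At week 9 both arrays were saturated for Fasn, Scd1, Srebf1 and Dgat2, so the brightest probes give no difference for them there. The dimmest probes of Fasn (5.58 in LFC and 2.19 in HFC) and Dgat2 (3.90 and 3.54), not saturated there, were lower in HFC. The other 5 genes were lower, with a median of -2.10, when 51.8% of all probes were higher. This median is a bound too, since Elovl6, Me1 and Thrsp were saturated in LFC. At day 10 all 8 genes with a value were lower, with a median of -1.23, when 44.2% of all probes were higher. At day 6 (-1.45, also a bound, since 4 genes were saturated in LFC) 7 of the 9 were lower. The direction of the other 2, Fasn and Dgat2, is unknown from their brightest probes, saturated in LFC, and their dimmest probes were lower in HFC (6.01 in LFC and 3.20 in HFC for Fasn, 4.72 and 1.89 for Dgat2). At weeks 0 (-0.84) and 6 (-0.66) 8 of the 9 were lower. Of all probes, 61.2%, 53.9% and 52.9% were higher at day 6 and weeks 0 and 6. More of the genes were higher in HFC at day 1 (6 of the 8 not saturated on both arrays, median 1.67), day 14 (8 of 9, 1.29), week 3 (6 of 9, 0.19) and week 18 (8 of 9, 1.58). Of all probes, 54.5%, 56.3%, 21.0% and 52.3% were higher at these time points, and their median at week 3 was -1.83. At day 14 and at weeks 3 and 18 the LFC array stands apart in quality or markers. At day 1 Thrsp and Dgat2 were saturated in HFC, so the median of 1.67 is a bound too. The arrays of day 1 were also the only HFC and LFC pair scanned on different days. For the adipocyte markers the medians of days 1, 6, 10 and 14 were 3.21, -0.70, -0.75 and 2.13, and those of weeks 0, 3, 6, 9, 12, 15 and 18 were -0.01, -0.07, -0.68, -0.37, -2.55, -0.53 and 7.79. Apart from weeks 3 and 9, they had the sign of the median of the 9 genes at each of these time points. At week 3 they had the other sign. At week 9 their median lay among the differences of genes saturated on both arrays, from -0.32 (Fasn) to -0.39 (Dgat2). Its sign cannot be read there.

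At day 6 and week 9 both arrays of the pair were rich in adipocyte markers, and there Acly, Acaca and Elovl6 were far lower in HFC than LFC. The digestion response differed within these pairs, with means of 0.63 in LFC and 4.03 in HFC at day 6, and -0.76 and 2.90 at week 9. At week 9, Acly lay at 4.29 in LFC and at 0.39 in HFC. Acaca lay at 3.89 and 1.79, and Elovl6 at 5.70 (saturated) and 1.63, while Me1 and Thrsp, saturated in LFC, differed by at least 0.88 and 1.06. The HF5, HF20 and HF75 arrays of that week had Acly levels of 0.57, 0.67 and 0.52. Thus 1 low-fat array stood above 4 high-fat arrays, 3 of which had adipocyte means of 4.91 to 5.18 beside 5.24 in LFC. These means lie near the ceiling of their arrays, where saturated Scd1 lay at 5.71 in LFC, 5.33 in HFC, 5.47 in HF5 and 5.54 in HF20. They therefore cannot show that adipocyte content was alike. At day 6, Acly lay at 5.30 in LFC and 1.47 in HFC, Acaca at 4.29 and -0.45, and Elovl6 at 6.48 and 2.20. Brown or beige fat markers (Ucp1, Cidea, Cox7a1, Cox8b and Ppargc1a) had mean levels of 5.36 in LFC and 6.19 in HFC on these day 6 arrays. The stromal progenitor means there were 3.84 in LFC and 2.85 in HFC. With 1 array per diet, no difference at day 6 or week 9 has a replicate error. The day 6 arrays also had the lowest ratios of signal to background after the LFC array of week 3.

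**Figure D3:**
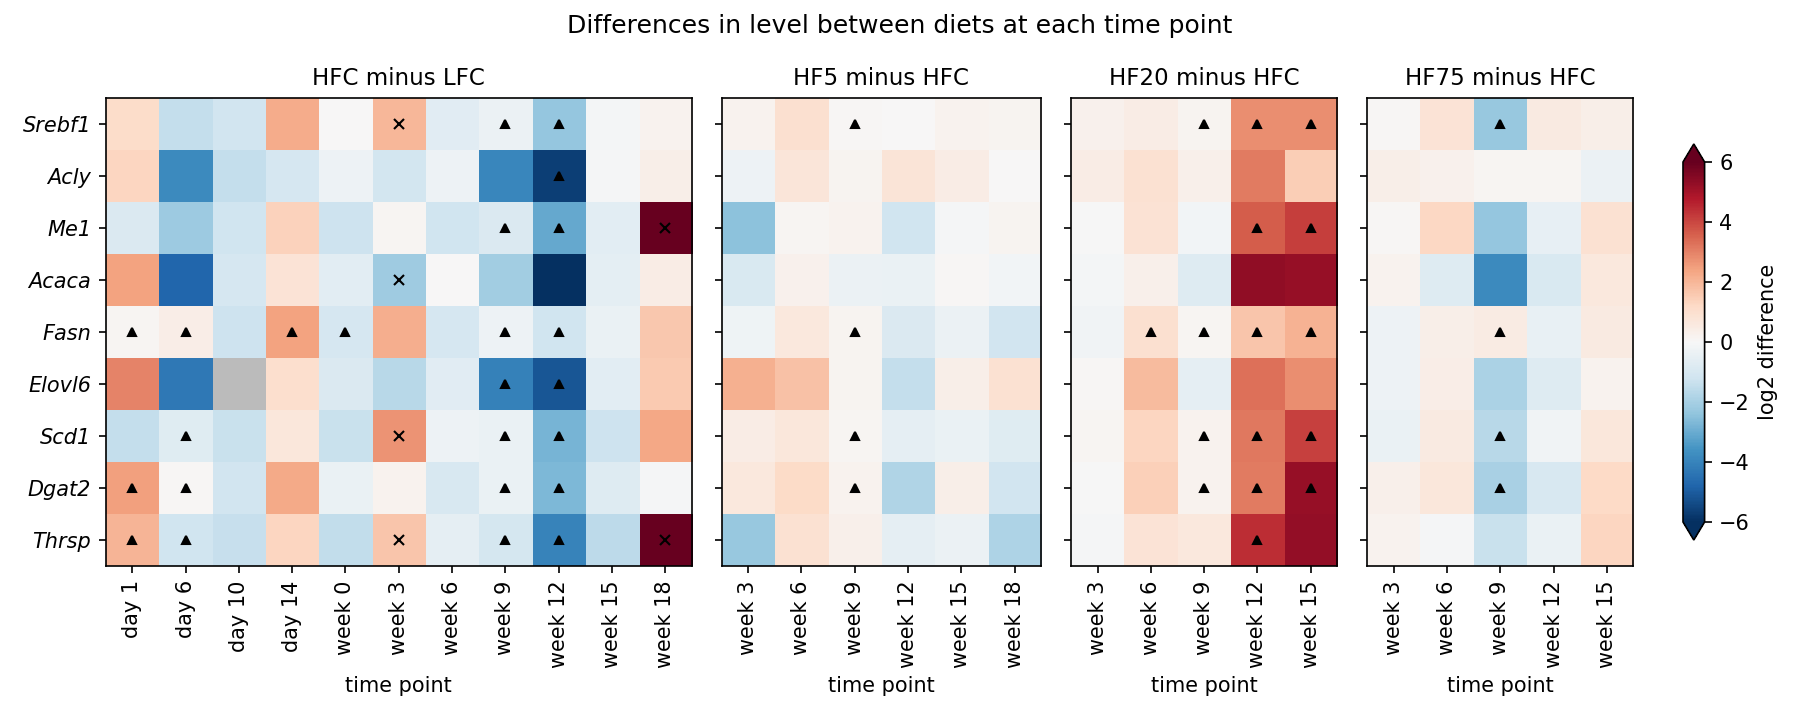
Log2 difference in level between diets for each gene at each time point, for HFC minus LFC and for each Kal-1 diet minus HFC. Triangles mark differences with a saturated array, crosses those with an array not well above background, and the grey square a dropped spot; colours end at 6 in each direction. HF20 minus HFC is positive for all 9 genes at weeks 6, 12 and 15, and HFC minus LFC is negative for all 9 at weeks 12 and 15. At week 9 both arrays are saturated for 4 genes in HFC minus LFC, HF5 minus HFC and HF20 minus HFC, and the colours drawn there carry no direction.

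The Kal-1 diets were each compared with the HFC arrays of the same weeks, so these comparisons share their controls. For HF20 (5 pairs), limma put 0 of the 9 genes past the threshold, against 0% of 30832 probes. At an unadjusted p under 0.05, 6 of the 9 passed, against 11.8% of all probes (3648). All 9 were higher in HF20, against 55.9% of all probes, with a median log2 difference of 1.70 beside 0.08 over all probes. Thrsp differed by 2.22 (SE 0.879, adjusted p 0.406, higher in 4 of 5 pairs), Dgat2 by 1.98 (SE 0.790) and Scd1 by 1.78 (SE 0.658). Acly differed by 1.25 (SE 0.442, 5 of 5 pairs) and Srebf1 by 1.29 (SE 0.517). Acaca differed by 2.0 (SE 1.08, 3 of 5 pairs), Me1 by 1.70 (SE 0.747, 3 of 5), Elovl6 by 1.5 (SE 0.620, 4 of 5) and Fasn by 0.94 (SE 0.393). At week 9 both arrays were saturated for Scd1, Srebf1, Dgat2 and Fasn, and over the other 4 pairs these were higher in HF20 in 4, 4, 3 and 3. Saturation makes several of these differences inexact, since 3 of the 5 HF20 arrays were saturated for Scd1, Srebf1 and Dgat2 and 4 for Fasn, with 1 HFC array for each. On probes that were not saturated in this comparison, Fasn differed by 2.85 (SE 1.21, adjusted p 0.406, higher in 3 of 5 pairs) and Dgat2 by 3.04 (SE 1.26, 5 of 5 pairs).

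Time points contributed unequally to the HF20 difference. The median over the 9 genes was -0.03 at week 3, 0.91 at week 6, 3.16 at week 12 and 4.12 at week 15. The HF20 array was saturated for 6 genes at week 12 and 5 at week 15, so the last 2 medians are bounds. At week 9 it was -0.15 over the 5 genes not saturated on both arrays, with 2 higher and 3 lower. At weeks 12 and 15 the HF20 array was rich in adipocyte markers and the HFC array was not, and the median of those markers differed by 2.94 and 4.39. At week 9, where both arrays were rich, it differed by 0.21, and at weeks 3 and 6, where neither was, by 0.33 and 0.32. Scd1, saturated on both arrays of week 9, also differed by 0.21, so the week 9 value cannot show that the markers were alike. All 9 genes were higher at week 6, against 48.5% of all probes. The genes of the tissue digestion response had a median difference of -2.79 in this comparison, with 7 of 7 lower and 6 of them at an unadjusted p under 0.05. Macrophage markers were lower in 9 of 9 (median -0.53, 3 under that p), stromal progenitor markers in 7 of 8 (-0.57, 3 under it), and adipocyte markers were higher in 11 of 12 (1.80, 5 under it). Whether the adipocyte content of the arrays accounts for the HF20 levels was not tested.

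For HF5 (6 pairs), limma again put 0 of the 9 genes past the threshold, against 0% of 29200 probes, and 0 of 9 passed at an unadjusted p under 0.05, against 5.16% (1507 probes). The median over the 9 was -0.10, beside -0.00068 over all probes. Srebf1 was higher by 0.27 (SE 0.188, adjusted p 0.965), in all 5 pairs but that of week 9, where both arrays were saturated. The other differences were 0.65 for Elovl6, 0.30 for Acly, -0.07 for Scd1, -0.10 for Dgat2, -0.25 for Acaca, -0.31 for Fasn, -0.54 for Me1 and -0.63 for Thrsp. Scd1, Dgat2 and Fasn were saturated on 1 array of each diet, and the unsaturated probes of Fasn and Dgat2 differed by -0.26 and 0.32. The dimmer Acaca probes differed by -0.06, 0.11 and 0.66. The last had a limma unadjusted p of 0.032 (adjusted p 0.958), well above background on 3 HF5 and 2 HFC arrays. At week 6 all 9 genes were higher in HF5, with a median of 0.72, when 46.0% of all probes were. At week 12, 7 of the 9 were lower, with a median of -0.56, when 52.0% of all probes were higher. The adipocyte markers differed by 1.20 at week 6 and by -1.03 at week 12. Marker lists were mostly lower in HF5: 11 of 12 adipocyte (median -0.39), 8 of 8 stromal (-0.64), 7 of 9 macrophage (-0.44), 4 of 5 brown or beige fat (-0.42) and 7 of 7 digestion genes (-0.72). Of these 0 passed in limma, and 1, 1, 4, 0 and 0 had an unadjusted p under 0.05.

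For HF75 (5 pairs), 293 of 28913 probes passed, which is 1.01%, with 234 higher and 59 lower in HF75. None of the 9 genes was among them, and 0 of 9 passed at an unadjusted p under 0.05 in limma, against 14.6% of all probes (4208). Over the 9 genes the median was -0.11, beside -0.01 over all probes. The largest difference was that of Acaca, -0.92 (SE 0.620, adjusted p 0.575, lower in 3 of 5 pairs). It ran from -1.31 to -0.21 when each time point was left out. The second brightest Acaca probe went the other way, by 1.01 (limma unadjusted p 0.018, adjusted p 0.240, higher in 4 of 5 pairs). The other differences were -0.47 for Elovl6, -0.21 for Scd1, -0.14 for Dgat2, -0.11 for Me1, -0.10 for Srebf1, -0.06 for Thrsp, 0.10 for Acly and 0.13 for Fasn. The HFC array of week 9 was saturated for Fasn, Scd1, Srebf1 and Dgat2, and unsaturated probes differed by -0.14 for Fasn (adjusted p 0.945) and -0.86 for Dgat2 (adjusted p 0.671). At week 9 the median was -1.92, a bound for the same reason, with 7 of 9 lower when 53.9% of all probes were higher, and the adipocyte markers differed by -2.55. Of the other 2, Acly was higher and Fasn is unknown, since its dimmer probe was lower, at -0.54 in HF75 and 2.19 in HFC. The HFC array of that week carries the letters WS in its title, taken up below, and the HF75 array does not. At weeks 6 and 15, 7 and 8 of the 9 were higher in HF75, with medians of 0.41 and 0.62, when 46.1% and 51.8% of all probes were, and the adipocyte markers differed by 1.52 and 1.72. At week 12, 7 of the 9 were lower (median -0.43), when 50.2% of all probes were higher, and the adipocyte markers differed by -0.62. At week 3, 6 of the 9 were higher (0.09), against 45.3% of all probes, and the adipocyte markers differed by 0.50. Macrophage markers were lower in 7 of 9 (median -0.96, 4 at an unadjusted p under 0.05) and stromal markers in 7 of 8 (-0.87). Of the 8 stromal markers 6 were under that p, and 1 of these was the higher one. The medians were 0.17 for adipocyte markers (2 of 12 under it), -0.16 for brown or beige fat and 0.08 for the digestion response (0 under it in both). Of the marker genes, Dpt, a stromal gene, was the only one past the threshold in any comparison, and it fell by 2.43 in HF75 (adjusted p 0.0395, lower in 5 of 5 pairs). For HF75 against HFC the count of 293 was 0 without the arrays of week 3, 8 without week 6, 207 without week 9, 92 without week 12, 35 without week 15, and 1 without the block for the time point.

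Time on diet was examined in LFC and HFC together, with weeks 3 to 18 (12 arrays) set against days 1 to 14 and week 0 (10 arrays). Of 30263 probes, 1 passed in limma, which is 0.0033%, and it was a probe of Igh, higher late by 3.69 (SE 0.576, adjusted p 0.0482). This fit takes the LFC and HFC arrays of 1 time point as independent. The count was 0 with the time point or the scan day as a random block (alternatives chosen after seeing the data), and also with normexp, quantile normalization or a median shift. None of the 9 genes passed. At an unadjusted p under 0.05, 2 of the 9 did, against 4.17% of all probes (1261). They were Thrsp, with a log2 difference of -2.82 (adjusted p 1.000), and Fasn, with -1.75 (adjusted p 0.844), where 5 early and 3 late arrays were saturated. The dimmer Fasn probe differed by -1.53 (unadjusted p 0.163). The other differences were -1.65 for Me1, -1.44 for Scd1, -1.33 for Elovl6, -1.30 for Dgat2, -0.66 for Acaca, -0.31 for Acly and 0.01 for Srebf1. Among the 9 genes the median was -1.33, beside -0.01 over all probes, and 8 of 9 were lower late, while 49.4% of all probes were higher. Adipocyte markers lay the same way, with 11 of 12 lower and a median of -1.81, and so did brown or beige fat markers, 5 of 5 with a median of -1.46. Time on diet, age and the day of scanning cannot be told apart here.

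Whether the HFC difference itself changed between early and late was tested as an interaction. In limma 0 of the 9 genes passed, against 0% of 29267 probes. At an unadjusted p under 0.05, 0 of 9 did, against 4.25% (1244 probes). The median over the 9 was -0.36, beside -0.50 over all probes, and the genes fell on both sides of 0. The values were -1.47 for Elovl6, -1.44 for Dgat2, -1.23 for Acaca, -0.71 for Acly, -0.36 for Srebf1, 0.0092 for Fasn, 0.80 for Thrsp, 0.87 for Scd1 and 1.35 for Me1. All but that of Acaca rest in part on saturated arrays, and the dimmer Fasn and dimmest Dgat2 probes gave -1.15 and -2.24. For the late against early HFC effect, the normexp background correction put 4448 probes past the threshold and turned the median over all probes to 0.70, and 0 of the 9 genes passed there.

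The titles of 4 of the 5 arrays of week 9 carry the letters WS, which the labels do not explain, and these 4 (LFC, HFC, HF5 and HF20) were scanned on a day that holds no other array. Set against the other common weeks of the same diets, with diet as a block, limma put 0 of the 9 genes past the threshold, against 0% of 30721 probes. At an unadjusted p under 0.05, 7 of 9 passed, against 15.4% (4720 probes). All 9 were higher, against 44.2% of all probes, with a median of 2.81 beside -0.11 over all probes. Thrsp was higher by 3.58, Acaca by 3.16, Dgat2 by 2.96, Me1 by 2.83 and Scd1 by 2.81, with adjusted p from 0.210 to 0.224. This fit takes the 4 WS arrays, which share 1 time point, as independent. With the time point as a random block, an alternative chosen after seeing the data, 0 of the 9 genes and 0 probes passed, and 1974 probes had an unadjusted p under 0.05. Srebf1 was higher by 1.75, Elovl6 by 1.34, Fasn by 1.02 and Acly by 0.59. For Fasn, Scd1, Srebf1 and Dgat2 all 4 WS arrays were saturated, so these differences are not exact. The dimmer Fasn probe, saturated on none of the WS arrays, was higher by 3.81, and the dimmest Dgat2 probe, never saturated, by 4.79 (adjusted p 0.215 and 0.210). Against weeks 6 and 15 alone, 5 of 9 passed (Me1, Thrsp, Acaca, Dgat2 and Scd1), against 7.09% of probes, and with arrays weighted by their quality 8 of 9 did, against 55.1%. Both of these fits also take the WS arrays as independent. Adipocyte markers were also higher, 11 of 12 with a median of 3.15, and all 7 genes of the digestion response were lower, with a median of -3.10. The letters WS, the time point and the day of scanning cannot be told apart. The HF75 array of week 9, which lacks the letters, had a mean centred level of the 9 genes of 0.28, beside 1.90 to 3.40 on the WS arrays. It differs from them in diet and was scanned on yet another day, which holds no other array. It therefore cannot separate the letters from the week.

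Of the other genes of the pathway, none passed the test in any comparison. A list of 48 genes on the array held further enzymes and regulators, among them Acss2, Acacb, Mlxipl (ChREBP), Scd2, Gpam and Dgat1. In each of the 7 comparisons 0 of the 44 to 46 tested passed in limma. At an unadjusted p under 0.05, 3 passed for HFC against LFC, 3 for HF5, 10 for HF20, 6 for HF75, 1 for the interaction, 1 for late against early and 28 for WS. These are 6.67%, 6.67%, 22.2%, 13.6%, 2.22%, 2.17% and 60.9% of the list, beside 2.8%, 5.16%, 11.8%, 14.6%, 4.25%, 4.17% and 15.4% of all probes. The 3 for HFC against LFC, named here after their values were seen, were Mogat2 (-2.71), Fads2 (-0.82) and Scd3 (-1.13), and all were lower in HFC. The median over the list was -0.23 for HFC against LFC, 0.0034 for HF5, 0.94 for HF20, -0.37 for HF75, -1.03 for the interaction, -0.21 for late against early and 1.28 for WS.

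The other marker lists were read in the same way, and 0 of their genes passed in limma in any comparison. Endothelial, epithelial and skeletal muscle lists had 5 tested genes each, T cell and B cell lists 4 each, and the erythroid list 3. Their median log2 differences for HFC against LFC were 0.91 for endothelial, 0.11 for T cell, -0.50 for B cell, -0.06 for skeletal muscle, -1.32 for epithelial and 0.82 for erythroid genes, and 2 epithelial genes had an unadjusted p under 0.05. For HF20 against HFC they were -0.51 for endothelial, -1.44 for T cell, -1.27 for B cell, -0.11 for skeletal muscle, 0.69 for epithelial and -0.42 for erythroid genes, with 1 T cell gene under that p. For the WS arrays they were 0.41 for endothelial, -1.15 for T cell, -2.58 for B cell, -1.34 for skeletal muscle, -3.69 for epithelial and 0.32 for erythroid genes, and 4 of 5 epithelial and 2 of 4 B cell genes under that p. For HF5 they were -0.31 for endothelial, -0.54 for T cell, -0.52 for B cell, 0.12 for skeletal muscle, 1.74 for epithelial and -0.90 for erythroid genes, with 1 epithelial and 2 erythroid genes under it. For HF75 they were -0.26 for endothelial, -0.23 for T cell, 0.28 for B cell, 0.74 for skeletal muscle, 1.88 for epithelial and -1.45 for erythroid genes, with 2 epithelial genes under it. In the interaction they were 0.60 for endothelial, 3.12 for T cell, 3.54 for B cell, -0.06 for skeletal muscle, 0.36 for epithelial and 0.46 for erythroid genes, with 3 T cell genes and 1 B cell gene under it. Late against early gave -1.46 for endothelial, -0.57 for T cell, -0.70 for B cell, -0.95 for skeletal muscle, -0.41 for epithelial and -1.16 for erythroid genes, with 1 endothelial and 1 erythroid gene under it. Few genes of 3 more lists could be tested: in HFC against LFC 1 of 4 for the milk-producing mammary gland (0.13), 1 of 2 for sebaceous gland (-0.32) and 1 of 3 for liver (-1.84). The liver gene had an unadjusted p under 0.05 there and for WS (4.69), and differed by 3.09 in HF20. In HF20 the median of 2 mammary genes was 1.16, with 1 of them under that p, and in WS the sebaceous gene differed by -1.56, under that p. Their part in the levels of the 9 genes was not tested.

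The 9 genes varied together across arrays. Each gene's level had a Pearson r with the mean of the other 8 from 0.718 (Srebf1) to 0.892 (Thrsp) over the 38 arrays, with a Spearman rho of 0.491 and 0.908. For Srebf1 the rho was 0.317 without the arrays of week 9 (33 arrays). Of 20109 genes compared, those most like the mean of the 9 were Chpt1 (r = 0.951), Plin1 (0.949), Mrap (0.941), Pcx (0.937) and Adrb3 (0.933), where the median r of all genes was -0.0021. Plin1 and Adrb3 are on the list of adipocyte markers, and Pcx is on the list of other lipogenesis genes. The same 5 genes led without the arrays of week 9. Without the LFC arrays of week 3 and day 14 they were Gm6484 (0.954), Chpt1 (0.953), 2010003K11Rik (0.952), LOC100047653 (0.951) and Plin1 (0.949). The arrays share diets, time points and the same scaling, and no p is given for these values.

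Because the genes varied together, windows of 300 bases around their gene starts, most of each before the start, were searched on both strands for 4 motifs. The windows come from RefSeq, build GRCm38.p6, and 7 of the 9 genes matched, with 10 windows. The set of windows used held none for Scd1 and Dgat2. The letters CCAAT, bound by NF-Y, were in windows of 5 of the 7 genes (6 windows) and in 37.4% of all 32851 windows. The letters GGGCGG, bound by Sp1, were in 3 of the 7 (4 windows) and in 35.7% of all. The E-box CACGTG was in 0 of the 7 and in 7.15% of all, and TCACNCCAC, a form of the sterol regulatory element, in 0 and in 1.24%. A match is a description of letters, and a window without one says only that these letters are not there.

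The windows of Fasn and Thrsp are given because they hold the most CCAAT matches, 3 and 2, and that of Acly because its gene had the lowest p for HFC against LFC among the 9. Fasn is at chr11:120824498-120824797, Thrsp at chr7:97417501-97417800 and Acly at chr11:100527951-100528250, all on the minus strand of GRCm38.p6, and each is written 5′ to 3′. Capitals mark CCAAT on either strand, and in Acly also the 4 GGGCGG matches. Of the 3 matches in Fasn, 2 overlap.

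Fasn promoter: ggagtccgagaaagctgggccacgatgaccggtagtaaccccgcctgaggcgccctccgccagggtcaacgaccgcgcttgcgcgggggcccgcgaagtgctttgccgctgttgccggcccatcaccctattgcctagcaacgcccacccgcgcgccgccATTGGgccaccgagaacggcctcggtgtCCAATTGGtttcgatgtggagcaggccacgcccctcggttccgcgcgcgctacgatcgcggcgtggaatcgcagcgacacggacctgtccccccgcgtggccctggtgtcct
Thrsp promoter: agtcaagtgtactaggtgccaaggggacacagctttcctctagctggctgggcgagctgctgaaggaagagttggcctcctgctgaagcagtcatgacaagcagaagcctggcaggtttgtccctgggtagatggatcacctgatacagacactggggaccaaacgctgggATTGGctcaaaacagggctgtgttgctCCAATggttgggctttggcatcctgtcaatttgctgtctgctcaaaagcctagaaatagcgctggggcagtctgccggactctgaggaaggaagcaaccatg
Acly promoter: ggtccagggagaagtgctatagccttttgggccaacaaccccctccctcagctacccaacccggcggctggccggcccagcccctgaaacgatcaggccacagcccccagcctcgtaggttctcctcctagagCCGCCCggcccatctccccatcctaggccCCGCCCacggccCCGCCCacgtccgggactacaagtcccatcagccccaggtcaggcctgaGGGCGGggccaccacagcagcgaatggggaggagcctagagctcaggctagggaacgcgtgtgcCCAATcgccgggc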

How the data were processed

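The files hold 1-colour intensities of Agilent arrays, and the processed signal is a background-corrected intensity in arbitrary units, deposited by the authors as written by Feature Extraction 10.5.1.1 per the file headers. A deposited table holds 4 annotation columns, which were used, and 40 columns of log2 fold changes against LFC, which were not. Each array has 43803 spots without controls, for 40628 probes. Spots marked as outliers were dropped, spots of a probe averaged, and the log2 of the signal over the array's 75th percentile taken. A level not well above background was raised to the lowest level on its array that was. Probes entered a test when 50% or more of the arrays in 1 of its groups were well above background, and the brightest probe on average stands for each gene. Tests were two-sided moderated tests in limma 3.58.1 (R 4.3.3), with Benjamini-Hochberg adjustment over all probes tested and a threshold of 0.05. The time point was a block in comparisons of diets, and diet a term in the others. The code was tested on simulated data. Tables and plots used Python 3.11.15, pandas 2.3.3, NumPy 2.4.6 and Matplotlib 3.10.9.

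The genes and lists were chosen with earlier results of these data known. The lists are other lipogenesis genes and markers of adipocytes, brown or beige fat, macrophages, stromal progenitors, endothelium, T cells, B cells, skeletal muscle, epithelium, mammary gland, sebaceous gland, liver and erythroid cells, and genes of the tissue digestion response. The naming rule takes each of the 9 genes in each comparison, list genes past the threshold and the 5 genes with the highest r, and 3 list genes outside it are marked in the text. Of the 40 arrays, 2 of week 18 whose title and characteristics give different diets were left out. Alternatives changed the background correction, scaling, floor, filter, outlier spots, array weights, arrays used, blocks and probes.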

Additional observations from a re-analysis of the deposited data

Results flagged for a closer look

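Within groups of 5 or 6 arrays, 30 sets of levels (the 9 genes and their mean in HF5, HF20 and HF75) were searched for an array far from the others. Chance alone gives about 1 in 20 such groups, and 6 were found. In HF5 the array of week 9 lay far above the other 5 for Acaca (1.43), Thrsp (4.91), Dgat2 (5.51) and the mean of the 9 centred levels (2.03). That array carries the letters WS and is rich in adipocyte markers, and these 4 sets share it. In HF5 the array of week 3 lay far below the others for Acly (-0.067). In HF75 the array of week 9 lay far above the others for Dgat2 (3.35). The causes were not tested.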

How the results depend on the processing

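For the diets, 0 of the 9 genes passed under any alternative. The lowest adjusted p of any of them was 0.719 for HFC against LFC, 0.160 for HF5, 0.132 for HF20 and 0.240 for HF75. Directions given for these differences describe the arrays, since none passed. The fitted differences of the 9 genes for HF20 were above 0 in each alternative. The median of the 9 for HF20 was 1.16 to 2.16 when each time point was left out, and for HFC against LFC it was -0.63 to 0.13. For HF5 it was -0.35 to 0.06, for HF75 -0.39 to 0.15, for late against early -1.82 to -0.73 and for the late against early HFC effect -0.96 to 0.16, so of these only HF20 and late against early kept 1 sign.

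For HF75 against HFC, 293 probes became 145 with no filter, 149 with probes well above background on every array, 1454 with array weights, 0 without the poor pairs and 1 with no block for the time point. In this comparison the poor pairs were the pair of week 3 alone, whose 2 arrays were not the poor ones. Leaving out each time point gave 0 to 207. With only pairs scanned on 1 day, an alternative chosen after seeing the data, it was 0, but this leaves 4 arrays and says nothing about the scan day.

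For late against early, 1 probe became 0 with normexp, quantile normalization, a median shift, no filter, without the poor pairs and without week 9, and 0 with the scan day or the time point as a random block, both chosen after seeing the data. It became 2 with probes well above background on every array and 181 with array weights, and leaving out each time point gave 0 to 4. For the late against early HFC effect, 0 became 4448 with normexp.

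For the WS week 9 arrays against other weeks, 0 probes became 6 with quantile normalization, 16919 with array weights and 2223 with only weeks 6, 9 and 15. Of the 9 genes, 8 and 5 passed in the last 2 of these. Those fits take the WS arrays, which share 1 time point, as independent. With the time point as a random block, chosen after seeing the data, the count of the main fit stayed at 0. With probes well above background on every array, the brightest probes of Scd1, Acaca, Srebf1 and Thrsp dropped out, and the median of the remaining genes was 1.34. These 4 were not above background on the LFC array of week 3. The causes of the other changes were not tested.

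The scaling or the background correction (normexp) moved the median of all probes by over 0.1 in these cases. For HFC against LFC it went from -0.08 to 0.18 with quantile normalization and 0.05 with a median shift. With normexp it was -0.30 for HF5, -0.39 for HF20 and -0.23 for HF75. For the late against early HFC effect it went from -0.50 to 0.03 with quantile normalization, -0.31 with a median shift and 0.70 with normexp. For late against early it was 0.20 with a median shift and -0.21 with normexp, and for WS 0.20 with a median shift, 0.13 with quantile normalization and -0.21 with normexp.

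Saturation bounds the high levels, the dim LFC array of week 3 limits what is seen there, and 1 array per diet and labelled time point leaves little replicate error. Only day 14 and week 0 are counted as the same day, and their medians of the 9 genes for HFC against LFC were 1.29 and -0.84.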

Other observations

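For 2 arrays of week 18 the title and the characteristics give different diets, so they were put in no group. On the first, 21710 spots were marked as outliers, Acaca and Acly had no value, and the levels were 0.87 for Fasn, 0.17 for Scd1, -0.82 for Elovl6, -1.40 for Me1, 0.15 for Srebf1, 1.76 for Thrsp and -0.63 for Dgat2. The mean of its 7 centred levels was -2.68. On the second the levels were 4.18 for Fasn, 3.89 for Scd1, -1.70 for Acaca, 0.22 for Acly, 0.09 for Elovl6, 2.29 for Me1, 2.89 for Srebf1, 2.51 for Thrsp and 3.21 for Dgat2, and the mean of the 9 centred levels was 0.02.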
